A study of Homo sapiens with 12 samples.

Results

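KYSE150 is an established human cell line of squamous carcinoma of the esophagus. RNA was sequenced from 12 libraries of this line, 3 in each of 4 groups. The comparison described here sets the 3 libraries of cells carrying GFP-tagged TFAP2β that lacks the third of its intrinsically disordered regions (GFP-TFAP2β-ΔIDR3, written dIDR3) against the 3 libraries of cells carrying the GFP-tagged protein of normal sequence (GFP-TFAP2β, written WT), 6 of the 12 libraries. The other groups, GFP alone and GFP-TFAP2β-Mut_IDR3, an altered form of the same region, are used only to place the values of dIDR3. All 4 groups share the line, the medium and the library kit, and the title of the series calls the altered proteins deficient in phase separation. The labels name no promoter, vector or time after introduction, do not say whether a group is 1 clone or a pool, and do not say whether replicates were separate cultures, so a p-value here is set against a spread among libraries that may be technical only.

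TFAP2β, encoded by TFAP2B, is one of the AP-2 transcription factors, which bind GC-rich palindromic DNA as dimers through a helix-span-helix domain and activate transcription through a more flexible amino-terminal part. AP-2 proteins are known for their roles in neural crest, kidney and surface epithelium, where they act beside p63. Intrinsically disordered regions lack a fixed fold, and some of them allow transcription factors to gather in condensates with coactivators.

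The 6 libraries held between 34931963 and 43464956 counts each. Replicate libraries differed by more than sampling noise, so none was a second deposit of another, and the first principal component of all 12 libraries (37.6% of the variance) set the WT libraries apart from the rest. The defining markers of squamous epithelium KRT5, at 2948, 2668 and 3089 counts-per-million (CPM) in the WT libraries and 3372, 3241 and 3179 CPM in the dIDR3 libraries, and TP63, at 124, 131 and 123 CPM and 135, 138 and 137 CPM, were abundant, and all 10 squamous markers passed the filter on low counts. Of these 10, 7 were lower and 2, KRT5 and TP63, were called higher with dIDR3, 4 of the falls being of at least 2-fold (median log2 fold change -0.57). Their summed level was 7290.0 to 8592 CPM with WT and 4829 to 5111.5 CPM with dIDR3. The glandular markers CDX2, VIL1, MUC2, MUC5AC and TFF3, the leukocyte marker PTPRC and the endothelial markers PECAM1, KDR and TEK had no counts in any of the 6 libraries. Of the other leukocyte markers, CD68, a lysosomal protein that epithelial cells also make, was at 94.1, 81.4 and 102 CPM in the WT libraries and 50.0, 49.6 and 49.3 CPM in the dIDR3 libraries, and the endothelial marker CDH5 went from 0 counts to 58. The 9 fibroblast markers summed to 11.5 to 12.8 CPM with WT and 11.9 to 14.9 CPM with dIDR3. The 4 smooth muscle markers summed to 1.65 to 2.87 CPM and 1.06 to 1.55 CPM. Levels of the simple epithelial markers KRT7, KRT8, KRT18, KRT19 and KRT20 are not reported here. Mitochondrially encoded mRNAs took 5.75 ± 0.356% of the counts with WT and 7.72 ± 0.0634% with dIDR3 (SD, n = 3).

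About as many genes differed between the groups as did not. Of 14792 genes tested with edgeR's quasi-likelihood test, 7730 (52.3%) had a Benjamini-Hochberg adjusted p under 0.05, of which 4025 (27.2% of genes tested) were higher and 3705 (25% of genes tested) were lower with dIDR3. Changes of at least 2-fold were found in 1359 of them (9.19% of genes tested), 592 higher and 767 lower, and changes of at least 4-fold in 120 higher and 289 lower genes. Larger changes were more often falls. The 15 largest falls among genes with an established symbol, at least 5 CPM and no overlap of libraries included lambda interferons, chemokines and antiviral effectors. The median log2 fold change of all genes tested was 0.03. The counts of the gene lists below are to be read against the 27.2% higher and 25% lower among all genes tested. Tested members without counts in 1 of the 2 groups passed the filter only through other groups. They could therefore be called only towards the group with counts. Such members were 3 of 47 interferon-stimulated effectors, 3 of 11 chemokines and 2 of 19 squamous differentiation genes. There was 1 in each of the lists of viral sensors, NF-kB genes, inflammatory cytokines and the interleukin-1 family.

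**Figure D1:**
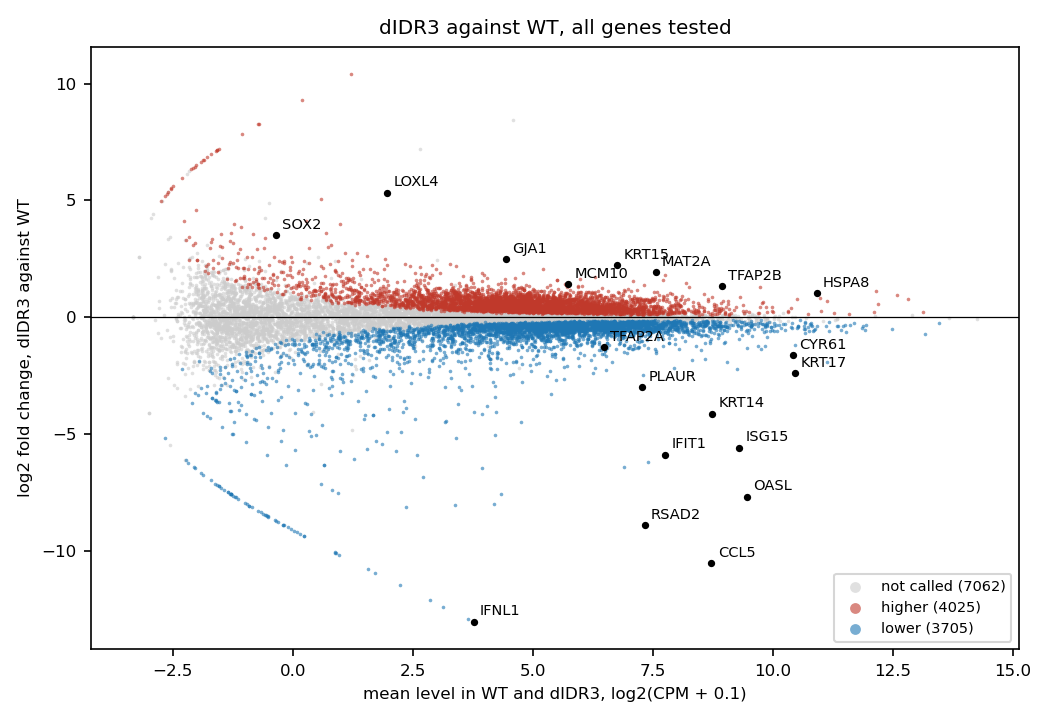
Log2 fold change of dIDR3 against WT (y axis) for each of the 14792 genes tested, against the mean level in the 2 groups as log2(CPM + 0.1) (x axis). Red points are the 4025 genes called higher, blue points the 3705 called lower and grey points the genes not called. The falls labelled KRT14 and IFNL1 lie below -4 with CCL5, RSAD2, OASL, ISG15 and IFIT1, while the labelled rises other than LOXL4 lie below 4.

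The base composition of genes bears on these counts. Genes low in GC were higher and genes rich in GC were lower with dIDR3: over 11376 genes with at least 1 CPM, the median log2 fold change went from 0.45 in the fifth of genes lowest in GC to -0.25 in the fifth that was highest. With this trend removed, 3542 genes were higher and 3702 lower, and 5551 of the 7730 calls (71.8%) kept their direction, as did 1293 of the 1359 calls of at least 2-fold (95.1%). The part of library preparation in the trend was not tested. Named genes that lose their call without the trend are given as such below, and list counts are as fitted unless stated otherwise.

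The groups also differed in the amount of TFAP2B RNA itself. TFAP2B (ENSG00000008196) was at 285, 232 and 323 CPM in the WT libraries and at 739, 742 and 632 CPM in the dIDR3 libraries, so that the groups did not overlap and dIDR3 was 2.51-fold higher (log2 fold change 1.33 ± 0.12 SE, adjusted p = 3.07e-07). The counts are over the whole gene, and whether reads of the deleted part are among them was not analysed here. The deletion and the higher level of its RNA cannot be told apart within this comparison. The mean in Mut_IDR3 was 702 CPM. The log2 difference of dIDR3 from it was 0.01 ± 0.11 (adjusted p = 0.989). The GFP libraries had a mean of 0.124 CPM.

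TFAP2A, another AP-2 gene, was at 126, 132 and 125 CPM in the WT libraries and at 55.8, 50.7 and 50.6 CPM in the dIDR3 libraries, a fall of 2.43-fold (log2 fold change -1.28 ± 0.064 SE, adjusted p = 7.75e-10) and below the 59.7 CPM of GFP (-0.19 ± 0.064, adjusted p = 0.0376). TFAP2C fell by less, from 43.5, 53.4 and 47.4 CPM to 39.9, 42.5 and 36.4 CPM (-0.28 ± 0.09, adjusted p = 0.0172), and lost its call with the GC trend removed and without WT replicate 2 (-0.20) or dIDR3 replicate 3 (-0.25). TFAP2E was under 1 CPM in all 6 libraries, at -0.52 ± 0.50 on the log2 scale (adjusted p = 0.409). Of the CITED coactivators, which link AP-2 to the acetyltransferases CBP and p300, CITED2 fell from 155, 146 and 144 CPM to 88.6, 85 and 85.5 CPM and CITED4 from 5.12, 3.67 and 4.54 CPM to 2.07, 2.31 and 2.59 CPM. CREBBP, which encodes CBP, rose from 37.9, 31 and 36.5 CPM to 44.5, 43.2 and 42.3 CPM, a call it lost with a trend by transcript length removed (from 0.30 to 0.03). Of the 14 family members and cofactors tested, 4 were higher (28.6%, near the 27.2% of all genes tested) and 6 lower (42.9%, against 25%).

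Interferons and the genes they induce were lower with dIDR3. Type III interferons (IFNL1, IFNL2, IFNL3) are secreted by epithelial cells that sense viral nucleic acid, and with type I interferons they induce a common set of antiviral genes through STAT2 and IRF9. IFNL1 was at 29, 23.5 and 28.9 CPM in the WT libraries and had no counts in any dIDR3 library, which is at least 1090-fold lower when the bound is set by 3 counts over the group. IFNL3 (from 1933 counts to 0) and IFNL2 (from 1589 counts to 0) were at least 692.9-fold and at least 569.6-fold lower, though these genes are near-identical copies between which the authors' counting could have split reads. IFNB1, a type I interferon, went from 69 counts to 0, at least 24.7-fold lower. The receptor chains did not move together, since IFNAR1 rose (0.68 ± 0.095, adjusted p = 2.65e-05), IL10RB fell (-0.74 ± 0.089, adjusted p = 6.99e-06) with both still called at 0.40 and -1.13 with the GC trend removed, and IFNAR2 was at -0.05 ± 0.085 (adjusted p = 0.686).

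Of 47 interferon-stimulated effectors tested, 44 were lower (against 25% of all genes tested) and 0 higher, 33 of them by at least 2-fold. Their median log2 fold change was -1.74, against 0.03 for all genes tested. OASL, an antiviral relative of the oligoadenylate synthetases, went from 1424, 1361 and 1406 CPM to 7.21, 6.68 and 6.94 CPM, a log2 fold change of -7.65 ± 0.091, and the ubiquitin-like modifier ISG15 from 1290.0, 1155 and 1266 CPM to 25.1, 25 and 28.1 CPM (-5.57 ± 0.074). RSAD2 (viperin) fell from 303, 355 and 308 CPM to 0.749, 0.883 and 0.411 CPM, and IFIT1, which binds viral RNA without a proper cap, from 391, 471 and 417 CPM to 6.96, 7.25 and 7.74 CPM. In these 4 genes every WT library lay far above every dIDR3 library, and libraries of the 2 groups do not overlap in 55.6% of all genes tested. IFIT2 (-6.19), IFIT3 (-6.37), OAS2 (-7.55), IFI6 (-5.03) and HERC5 (-7.97), the ligase that attaches ISG15, also fell. GBP5, MX2 and IFI44L had no counts with dIDR3 and were at least 77.1-fold, 32.6-fold and 47.7-fold lower. They passed the filter only through other groups, so they could only be called lower. The median of the list is the same with the members without counts set at their bounds. The 3 members not called were IFIT5 (-0.24), IFITM2 (0.04) and IFI16 (0.13), and MX1, a classical interferon-induced GTPase, was low in both groups (from 2.31, 3.29 and 3.14 CPM to 1.17, 1.32 and 1.19 CPM).

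The list is poorer in GC than most (median 44.9% against 48.8% for all genes tested), so that the GC trend runs against its fall: with the trend removed 44 of the 47 were again lower, IFITM2 was higher, and the median was -2.10. IFI35 and C19orf66 lost their call and IFIT5 and IFI16 gained one. C19orf66 also lost its call without WT replicate 1 (-0.24) or 3 (-0.21) or dIDR3 replicate 1 (-0.25) or 2 (-0.27), and without WT replicate 3 IFIT5 was called lower (-0.37) and IFI16 higher (0.32). The promoters of these genes were searched for the interferon-stimulated response element (ISRE), written as GAAA, any 2 bases and GAAA on either strand, in the 250 bases before a start given by RefSeq (GRCh38.p14). Promoters of 38 of the 47 genes were in the table, and 26 of the 38 (68.4%) held a match in at least 1 promoter, against 338 of 10200 genes tested with a promoter (3.31%) and 1061 of all 35116 promoters (3.02%). The promoters of 4 genes that fell are shown, written 5′ to 3′ with ISRE matches in capitals, because each holds the element in its window.
ISG15: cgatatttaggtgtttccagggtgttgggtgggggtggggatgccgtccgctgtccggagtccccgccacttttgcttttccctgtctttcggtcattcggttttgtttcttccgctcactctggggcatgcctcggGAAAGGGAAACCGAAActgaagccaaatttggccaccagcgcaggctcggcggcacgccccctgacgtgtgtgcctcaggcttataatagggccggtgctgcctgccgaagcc
IFIT1: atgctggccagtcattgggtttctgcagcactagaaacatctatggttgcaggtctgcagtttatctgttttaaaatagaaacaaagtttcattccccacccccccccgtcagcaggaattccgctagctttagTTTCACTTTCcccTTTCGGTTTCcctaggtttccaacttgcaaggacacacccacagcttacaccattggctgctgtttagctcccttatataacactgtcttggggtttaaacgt
IFNL1: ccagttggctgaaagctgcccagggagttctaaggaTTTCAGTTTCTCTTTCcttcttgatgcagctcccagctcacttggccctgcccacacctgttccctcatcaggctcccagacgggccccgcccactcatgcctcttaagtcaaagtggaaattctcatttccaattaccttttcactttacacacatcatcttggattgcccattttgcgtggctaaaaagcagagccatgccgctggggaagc
HERC5: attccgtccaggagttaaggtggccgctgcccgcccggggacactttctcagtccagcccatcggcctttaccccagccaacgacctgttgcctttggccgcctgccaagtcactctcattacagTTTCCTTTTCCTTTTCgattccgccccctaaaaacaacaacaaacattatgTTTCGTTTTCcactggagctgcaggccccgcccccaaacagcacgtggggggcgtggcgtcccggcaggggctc

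The ISG15 window (chr1:1013247-1013496, plus strand) held 2 overlapping matches, the nearer ending 98 bases before the start. IFIT1 (chr10:89392373-89392622, plus strand) held 2, the nearer ending 94 bases before the start. IFNL1 (chr19:39296157-39296406, plus strand) held 2 overlapping ones, ending 199 bases before the start, and HERC5 (chr4:88456869-88457118, plus strand) held 3, the nearest ending 65 bases before it. A match is a stretch of letters and not a measured site. Over all genes that fell by at least 2-fold, 52 of 444 with a promoter (11.7%) held an ISRE match, against 12 of 374 (3.21%) that rose by at least 2-fold.

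Other lists of antiviral and inflammatory signalling also held more lower than higher genes. Among sensors of viral nucleic acid and their adaptors, 8 of 14 were lower (57.1%, against 25% of all genes tested) and 5 higher (35.7%, against 27.2%). DHX58 (LGP2), an RNA sensor, had no counts in the dIDR3 libraries and was at least 1003-fold lower, IFIH1 (MDA5) fell from 68.7, 76.7 and 80.8 CPM to 7.06, 8.39 and 7.72 CPM and DDX58 (RIG-I) from 18.4, 21 and 21.5 CPM to 2.00, 2.62 and 2.42 CPM. Rises were found in EIF2AK2, the kinase PKR (0.67 ± 0.082), and in TBK1 (0.80 ± 0.16), a kinase downstream of the sensors, which were smaller, at 0.23 and 0.38, with the GC trend removed. Of 14 genes of JAK-STAT and IRF signalling, 11 were lower and 1 higher: IRF1, a transcription factor itself induced by interferon, fell from 158, 144 and 157 CPM to 33.3, 32 and 32.2 CPM and STAT2 from 70.1, 62 and 74.1 CPM to 27.6, 28.5 and 25.2 CPM. JAK1 was called higher (0.22 ± 0.065), a call it lost with the GC trend removed and without WT replicate 1 or dIDR3 replicate 2 (0.15 in each).

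Of 24 genes of the NF-kB pathway and its feedback, 15 were lower and 2 higher (median -0.82). Inhibitors that NF-kB induces against itself were among the falls, TNFAIP3 (A20) from 35.4, 34.7 and 30.4 CPM to 2.72, 2.96 and 3.75 CPM and NFKBIA (IκBα) from 85.6, 85.6 and 84.4 CPM to 21.9, 19.8 and 19.4 CPM. RELB fell too (-1.73 ± 0.10), as did RELA (-0.58 ± 0.077, or -0.36 with the GC trend removed), whereas NFKB1 was at 0.05 ± 0.063 (adjusted p = 0.543). Of 15 inflammatory cytokines tested, 13 were lower and 0 higher (median -2.15, or -1.38 over those with at least 1 CPM in 3 libraries). Of the 19 listed, 4 did not pass the filter on low counts. IL6 fell from 23.7, 26.5 and 20.3 CPM to 2.94, 3.06 and 3.19 CPM, which still lay above GFP (1.16 ± 0.27 on the log2 scale, adjusted p = 0.00439), and IL32 from 28.7, 20.4 and 28.1 CPM to 1.87, 1.40 and 1.40 CPM. CSF1 and IL12A were not called, but CSF1 was called lower without WT replicate 2 (-0.28) and IL12A with the GC trend removed (-0.72).

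Of 18 chemokines listed, 7 did not pass the filter on low counts. Of the 11 tested, 8 were lower and 0 higher. Members without counts with dIDR3 could pass the filter only through other groups, so the filter itself favours falls in this count and in the median. CCL5 (RANTES), which attracts T cells, was at 899, 778 and 861 CPM in the WT libraries against 0.424, 0.597 and 0.702 CPM in the dIDR3 libraries, a log2 fold change of -10.51 ± 0.14 (adjusted p = 1.77e-16). CXCL10, which attracts T cells through CXCR3, had no counts with dIDR3 and was at least 227.6-fold lower, CCL22 was at least 63.1-fold lower, and CCL3 fell from 621 counts to 13. The chemokine median was -5.63, or -4.63 with the members without counts at their bounds. CXCL2 (0.09 ± 0.42) and CXCL3 (-0.79 ± 0.86) were not called, nor was CCL28 (-2.89 ± 1.20), which was called without WT replicate 3 (-3.41).

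MHC class I genes, which show peptides to CD8 T cells, were lower in 17 of 19 cases and higher in 1, PSMB8 (0.28 ± 0.077), a subunit of the immunoproteasome, which lost its call without dIDR3 replicate 3 (0.21). B2M, the light chain of all class I molecules, fell from 839, 969 and 708 CPM to 244, 214 and 223 CPM and the peptide transporter TAP1 from 134, 119 and 136 CPM to 42.6, 42.3 and 44.9 CPM. Reads of the class I heavy chain genes in the count can be split between similar members. Outside that list, CFB, complement factor B, fell from 9.53, 9.92 and 10.6 CPM to 4 counts in all. RARRES3, a tumour suppressor of the phospholipase family, fell from 32.5, 27.4 and 30.6 CPM to 0.449, 0.338 and 0.266 CPM.

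Immediate early genes, which growth factors and stress induce within minutes, were also lower. Of 13 AP-1 factors tested, 9 were lower and 0 higher. MAFF fell from 66.5, 65.2 and 73.8 CPM to 14.2, 14.8 and 13.1 CPM, ATF3 from 166, 158 and 155 CPM to 46.1, 39.5 and 42.4 CPM and FOSL1 (FRA1) from 202, 183 and 209.9 CPM to 94.6, 98.2 and 97.1 CPM, and FOS, JUN and JUNB changed by -1.96, -1.26 and -1.26 on the log2 scale. FOSL2 (-0.13 ± 0.081) and JUND (0.11 ± 0.071) were not called, though JUND was called higher with the GC trend removed and FOSL2 lower without WT replicate 2 (-0.21). Of 23 other immediate early regulators, 19 were lower and 0 higher (median -1.19). KLF4, a factor of squamous differentiation, fell from 82.8, 94.3 and 81 CPM to 13.3, 13.5 and 14.4 CPM, EGR1 from 49.1, 43.7 and 50.1 CPM to 6.74, 7.95 and 6.39 CPM and CYR61, a matricellular protein also known as a YAP target, from 2100.0, 2048 and 2036 CPM to 677, 660.0 and 675 CPM. CYR61 stayed above GFP, at 1.16 ± 0.041 on the log2 scale. Feedback inhibitors of ERK, which are induced by ERK activity, were lower in 11 of 14 cases, among them SPRY2 (-1.82), DUSP5 (-1.70) and DUSP6 (-1.38), and higher in SPRED1 (0.49 ± 0.084), which was not called with the GC trend removed. Of the EGF-like ligands, HBEGF (-1.96 ± 0.16), AREG (-1.60 ± 0.11) and TGFA (-0.90 ± 0.071) fell, and the receptor EGFR was at 0.26 ± 0.053, a call lost with the length trend removed (0.02).

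The AP-1 site, searched as TGANTCA on either strand in the same windows, was present in 62 of 444 genes with a promoter that fell by at least 2-fold (14%) and in 25 of 374 that rose by at least 2-fold (6.68%), against 635 of 10200 genes tested (6.23%). Of the 27 immediate early genes with a promoter in the table, 0 held a match. PLAUR, the urokinase receptor, is printed because it is a large fall with a match, in capitals, ending 180 bases before the start (GRCh38.p14, chr19:43670170-43670419, minus strand).
PLAUR: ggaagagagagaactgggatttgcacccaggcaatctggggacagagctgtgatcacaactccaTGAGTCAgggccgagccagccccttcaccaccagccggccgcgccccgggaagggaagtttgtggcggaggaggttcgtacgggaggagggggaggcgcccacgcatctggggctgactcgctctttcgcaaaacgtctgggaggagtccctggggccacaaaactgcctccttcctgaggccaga

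The AP-2 site searched, GCCNNNGGC on either strand, was present in 135 of the 444 (30.4%), in 117 of the 374 (31.3%) and in 3422 of the 10200 (33.5%). The share was no higher in either group than among all genes tested. The windows of the genes that fell or rose by at least 2-fold held 61.2% and 61.6% GC at the median, against 64.4% for all genes tested.

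Epithelial structure genes changed in both directions. Of 17 keratins tested, 9 were lower and 3 higher. KRT14, the basal partner of KRT5, fell from 822, 731 and 865 CPM to 48.5, 46.2 and 45.2 CPM (log2 fold change -4.11 ± 0.067), KRT17 from 2382, 2137 and 2565 CPM to 464, 458 and 427 CPM and KRT16, a wound and stress keratin, from 57.5, 50.0 and 52.7 CPM to 14.3, 13.5 and 13.1 CPM. KRT15, which marks basal progenitor cells of stratified epithelium, rose from 39.9, 39 and 35.7 CPM to 192, 178 and 164 CPM (2.22 ± 0.063), and KRT5 was called higher at 0.17 ± 0.051 (0.38 with the GC trend removed), a call lost without dIDR3 replicate 1 (0.12). Near-identical keratin genes and pseudogenes can share reads, which bears most on KRT14, KRT16 and KRT17. All 3 dIDR3 libraries thus lay far below WT in KRT14 and above it in KRT15, with the GFP means at 227 CPM and 465 CPM.

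Of 22 transcription factors of squamous cells, 11 were lower (50%, against 25% of all genes tested) and 8 higher (36.4%, against 27.2%). GRHL3 fell from 6.69, 8.23 and 7.27 CPM to 0.749, 0.208 and 0.508 CPM, OVOL1 from 12.9, 8.11 and 14.5 CPM to 2.37, 1.77 and 2.03 CPM and GATA3 from 43.6, 41.6 and 45.2 CPM to 11.5, 10.5 and 11.3 CPM; GRHL3 and OVOL1 are drivers of terminal differentiation. SOX2, a stem-cell factor often amplified in squamous carcinoma, rose from 0.11, 0.0592 and 0.145 CPM to 1.90, 1.06 and 0.847 CPM (3.53 ± 0.38), TP73 from 1.63, 0.977 and 1.23 CPM to 5.86, 3.82 and 5.18 CPM, ELF3 from 28.6, 25.8 and 28.1 CPM to 76, 69.9 and 75.9 CPM and MECOM from 6.69, 5.48 and 7.05 CPM to 17.1, 22.8 and 18.7 CPM. TP63, the lineage factor, was at 0.12 ± 0.047 (adjusted p = 0.0446), a call that held in 2 of 19 alternatives, and was called lower, at -0.15, with the GC trend removed. The values with 1 library left out were 0.09 to 0.11 where the call was lost, which was so for each library but WT replicate 2. Of 19 genes of squamous differentiation tested, 13 were lower and 2 higher, or 14 and 1 with the GC trend removed. TGM1, the transglutaminase of the cornified envelope, was among the lower (-2.39 ± 0.25), and 16 of the 35 listed genes did not pass the filter on low counts.

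Of 29 junction genes, 19 were lower and 4 higher. CLDN4, a tight junction claudin, fell from 1040.5, 883 and 1092 CPM to 227, 212 and 215 CPM, CDH3 (P-cadherin) from 1185, 1057 and 1230.2 CPM to 522, 498 and 484 CPM and CDH1 (E-cadherin) from 624, 560.2 and 638 CPM to 335, 326 and 319.5 CPM. The desmosomal genes DSG2 (0.65 ± 0.06, or 0.35 with the GC trend removed) and PKP2 (0.38 ± 0.049) rose. Genes of pericellular proteolysis were lower in 12 of 15 cases and higher in 1, or in 12 and 0 with the GC trend removed. PLAUR fell from 274, 265 and 289 CPM to 36.3, 35.6 and 33.3 CPM (-2.98 ± 0.072) and its ligand urokinase (PLAU) from 179, 177 and 190.3 CPM to 73.4, 69 and 79.1 CPM. Of 20 integrins and laminins, 11 were lower, led by ITGA5 (-1.57 ± 0.088) and LAMB3 (-1.35 ± 0.073), and 5 were higher, of which ITGA1, ITGAV and ITGB1 lost their call with the GC trend removed. ITGA1 (1.95) also lost it without WT replicate 1 (1.76) or 2 (1.68) or dIDR3 replicate 3 (1.64). Of 22 mesenchymal genes and factors of epithelial-mesenchymal transition, 8 were lower (36.4%, against 25% of all genes tested) and 4 higher, with FN1 (-1.60 ± 0.084) among the first and LOXL4 among the second. The protease inhibitor SLPI fell from 53, 51.4 and 50.2 CPM to 10.7, 8.70 and 12.4 CPM, below the GFP mean of 23.1 CPM.

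**Figure D2:**
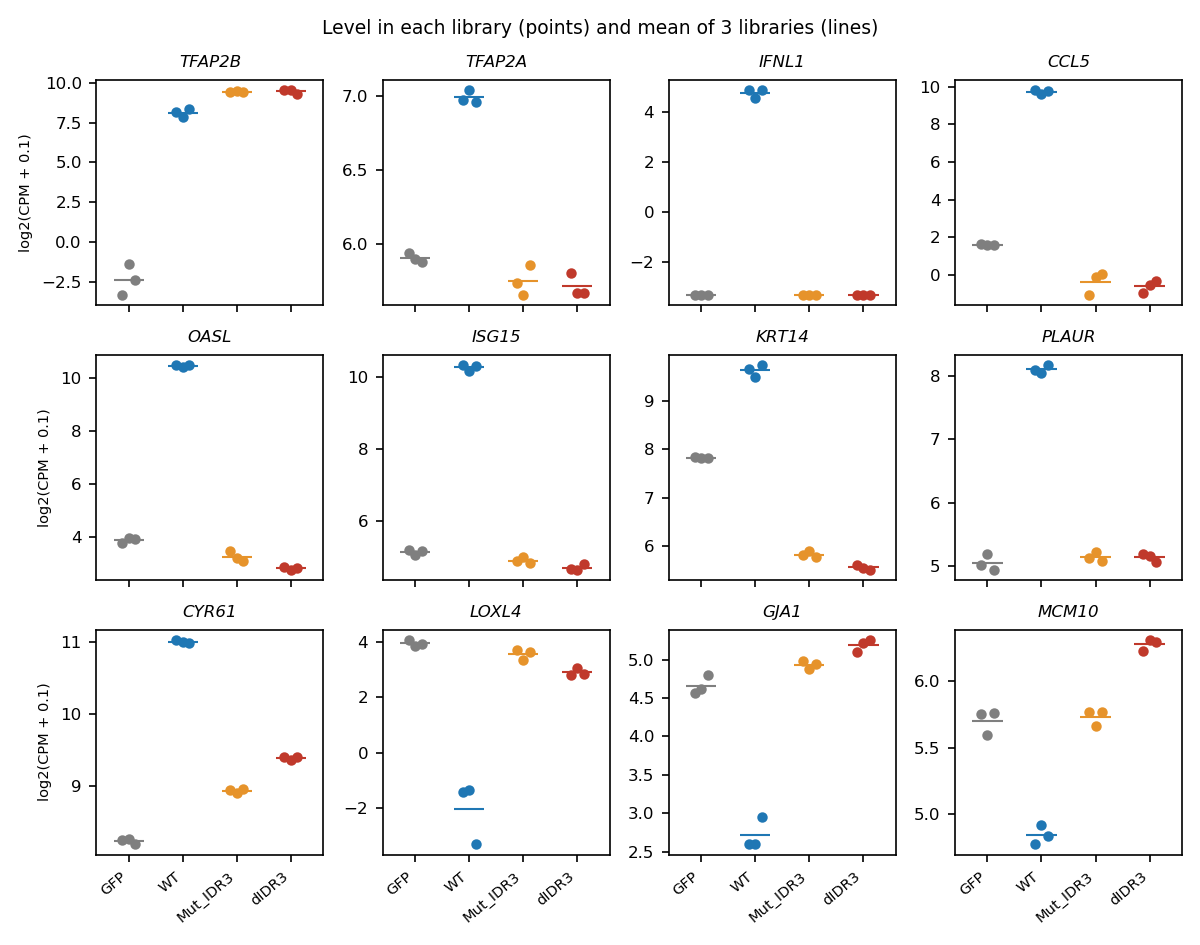
Level of 12 genes in each of the 12 libraries as log2(CPM + 0.1) (y axis), grouped by construct (x axis); points are libraries and lines the mean of 3. In each panel the 3 dIDR3 libraries lie apart from the 3 WT libraries, with TFAP2B, LOXL4, GJA1 and MCM10 higher and the other 8 genes lower; IFNL1 has no counts with dIDR3, which plots at the floor of the axis.

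Among genes with an established symbol, at least 5 CPM and no overlap of libraries, the largest rise was in LOXL4. LOXL4, a lysyl oxidase that crosslinks collagen, went from 0.275, 0.296 and 0 CPM to 6.99, 8.26 and 7.09 CPM, a log2 fold change of 5.34 ± 0.38 (adjusted p = 3.56e-08), which stayed below GFP (-1.06 ± 0.25, adjusted p = 0.00554). GJA1 (connexin 43), the main gap junction protein, rose from 5.98, 5.95 and 7.61 CPM to 34.3, 37.2 and 38.1 CPM and JAM3, a junctional adhesion molecule, from 0.992, 1.10 and 1.23 CPM to 5.94, 6.78 and 6.15 CPM. Several of the others act in metabolism: MAT2A, which makes S-adenosylmethionine, rose from 75.4, 85.3 and 76 CPM to 301, 293 and 305 CPM, NNT, the mitochondrial transhydrogenase that makes NADPH, from 2.04, 1.36 and 1.62 CPM to 7.24, 8.78 and 8.83 CPM, and ACSS1, the mitochondrial acetyl-CoA synthetase, from 1.82, 1.60 and 2.27 CPM to 9.33, 9.84 and 7.38 CPM. FKBP11 (2.20), the homeobox gene NKX1-2 (2.18), the carboxypeptidase CPA4 (2.08), DAGLA (2.07), the KIT ligand KITLG (1.92) and PPP2R2B (1.91) also rose. These genes were chosen for libraries that do not overlap between the groups, as those of 55.6% of all genes tested do not. ATXN7 appeared as 2 overlapping features on chromosome 3 that were called in opposite directions, so its change is uncertain. TFRC, the transferrin receptor, rose from 95.7, 97.5 and 95 CPM to 337, 349.7 and 321 CPM (1.81 ± 0.054). The ferritin chain FTH1 fell by 0.52 ± 0.04 on the log2 scale (to -0.29 with the length trend removed). The list of NRF2 targets, iron and ferroptosis genes as a whole had 9 of 32 higher (28.1%) and 7 lower (21.9%), near the 27.2% and 25% of all genes tested (median 0.04).

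G1/S and DNA replication genes were higher in 40 of 50 cases (against 27.2% of all genes tested) and lower in 2, with a median of 0.53. HELLS, a chromatin remodeller of replicating cells, rose from 20.5, 22.6 and 24.6 CPM to 61.8, 69.5 and 71.7 CPM, MCM10, an initiation factor, from 27.2, 30.2 and 28.5 CPM to 74.8, 79.4 and 78.6 CPM, MCM6, a helicase subunit, from 82.8, 87 and 76.6 CPM to 181, 183 and 179.7 CPM and cyclin CCNE2 from 2.34, 3.49 and 3.21 CPM to 8.31, 9.77 and 13 CPM. CCND3 (-0.44 ± 0.069, or -0.23 with the GC trend removed) and CDK2 (-0.14 ± 0.045) were the 2 lower genes, of which CDK2 lost its call with the GC trend removed. With the GC trend removed, 41 were higher, 2 lower and the median was 0.57. Genes of G2/M and mitosis were higher in 31 and lower in 12 of 51 cases (median 0.39), with BUB1B (0.81) and KIF11 (0.87) among the first and AURKB (-0.57) and UBE2C (-0.44) among the second, but with the trend removed 15 were higher and 12 lower (median 0.10) and KIF11 was at 0.41. With the length trend removed AURKB was at -0.34 and UBE2C at -0.16, still called.

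Ribosome biogenesis genes were higher in 38 of 50 cases and lower in 3 (median 0.51, or 0.42 with the GC trend removed, when 44 were higher). Among them were the snoRNP proteins NOP58, from 21.4, 20.3 and 26.6 CPM to 58.4, 75.7 and 71.2 CPM, and NOP56 (0.81 ± 0.057), the helicase DDX18 (1.24 ± 0.072) and nucleolin, NCL (0.87 ± 0.055). The genes of the ribosomal proteins went the other way, with 47 of 82 lower and 6 higher (median -0.30, or -0.14 with the length trend removed), none by 2-fold; RPL13 (-0.65 ± 0.049) fell. Nuclear-encoded genes of the respiratory chain were lower in 39 of 80 cases and higher in 3 (median -0.23), and with the length trend removed in 24 and 10 (median -0.088). Without WT replicate 2, ribosomal protein genes were higher in 11 cases and respiratory chain genes in 6. Without WT replicate 1 or 3 or dIDR3 replicate 1 or 3 the former were higher in 3 cases, and without dIDR3 replicate 2 the latter in 5. Mitochondrially encoded mRNAs were higher in 10 of 13 cases, 1 of them by at least 2-fold, and lower in 0 (median 0.26). With the GC trend removed 7 were higher and 2 lower (median 0.22). MT-CYB rose from 2648, 2972 and 3014 CPM to 6318, 6269 and 6181 CPM, beside 6408 CPM with GFP.

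Heat shock proteins and cochaperones were higher in 15 of 28 cases (53.6%, against 27.2% of all genes tested) and lower in 8 (28.6%, near the 25%). The HSP70 genes HSPA8, from 1268, 1403 and 1136 CPM to 2684, 2566 and 2582 CPM, and HSPA1A, from 94.8, 82.9 and 90.2 CPM to 203, 201 and 193 CPM, and the HSP90 gene HSP90AA1 (1.30 ± 0.11) rose, and all 3 were also above GFP, by 1.35, 1.64 and 0.34 on the log2 scale (adjusted p = 2.44e-09, 8.11e-11 and 0.033). HSPA1A and HSPA1B are near-identical copies. HSPB1 (-0.56 ± 0.051) and BAG3 (-0.43 ± 0.052) fell, to -0.30 and -0.21 with the GC trend removed. The list of unfolded protein response and ATF4 genes was lower in 24 of 39 cases and higher in 5, with PPP1R15A (GADD34) falling from 127, 117 and 141 CPM to 29.9, 27.8 and 29.1 CPM and XBP1 from 280.3, 293 and 251 CPM to 107, 98 and 103 CPM, and the cystine transporter SLC7A11 rising from 9.86, 11.7 and 14.9 CPM to 17.9, 23.5 and 27.2 CPM (0.91 on the log2 scale, or 0.43 with the GC trend removed). SR and hnRNP splicing factors were higher in 25 and lower in 4 of 33 cases, and in 16 and 8 with the GC trend removed. SRSF6 (1.55 ± 0.074) and SRSF2 (1.29 ± 0.059) rose under both fits.

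Of 32 genes listed as p53 targets, 17 were lower (53.1%, against 25% of all genes tested) and 6 higher (18.8%, against 27.2%). PMAIP1 (NOXA), a proapoptotic BH3 protein, fell from 70.5, 89.1 and 73 CPM to 13.7, 10.9 and 11.9 CPM and GADD45A from 67.7, 68.5 and 62 CPM to 23.3, 21.5 and 22.3 CPM. MDM2 (0.48 ± 0.062, or 0.18 with the GC trend removed) and SESN3 (3.63 ± 0.26) rose. Replication-dependent histone genes, whose mRNAs mostly lack a poly(A) tail, were lower in 13 of 32 tested cases and higher in 0, with 38 of the 70 listed not passing the filter; HIST1H1C fell from 95.5, 95.3 and 92.5 CPM to 31.2, 26.4 and 28.7 CPM. ZNF zinc-finger genes, a large family of repressors poor in GC, were higher in 123 (33.5%, against 27.2% of all genes tested) and lower in 57 of 367 cases, and in 74 and 53 with the GC trend removed. Without dIDR3 replicate 2 they were higher in 81 cases.

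**Figure D3:**
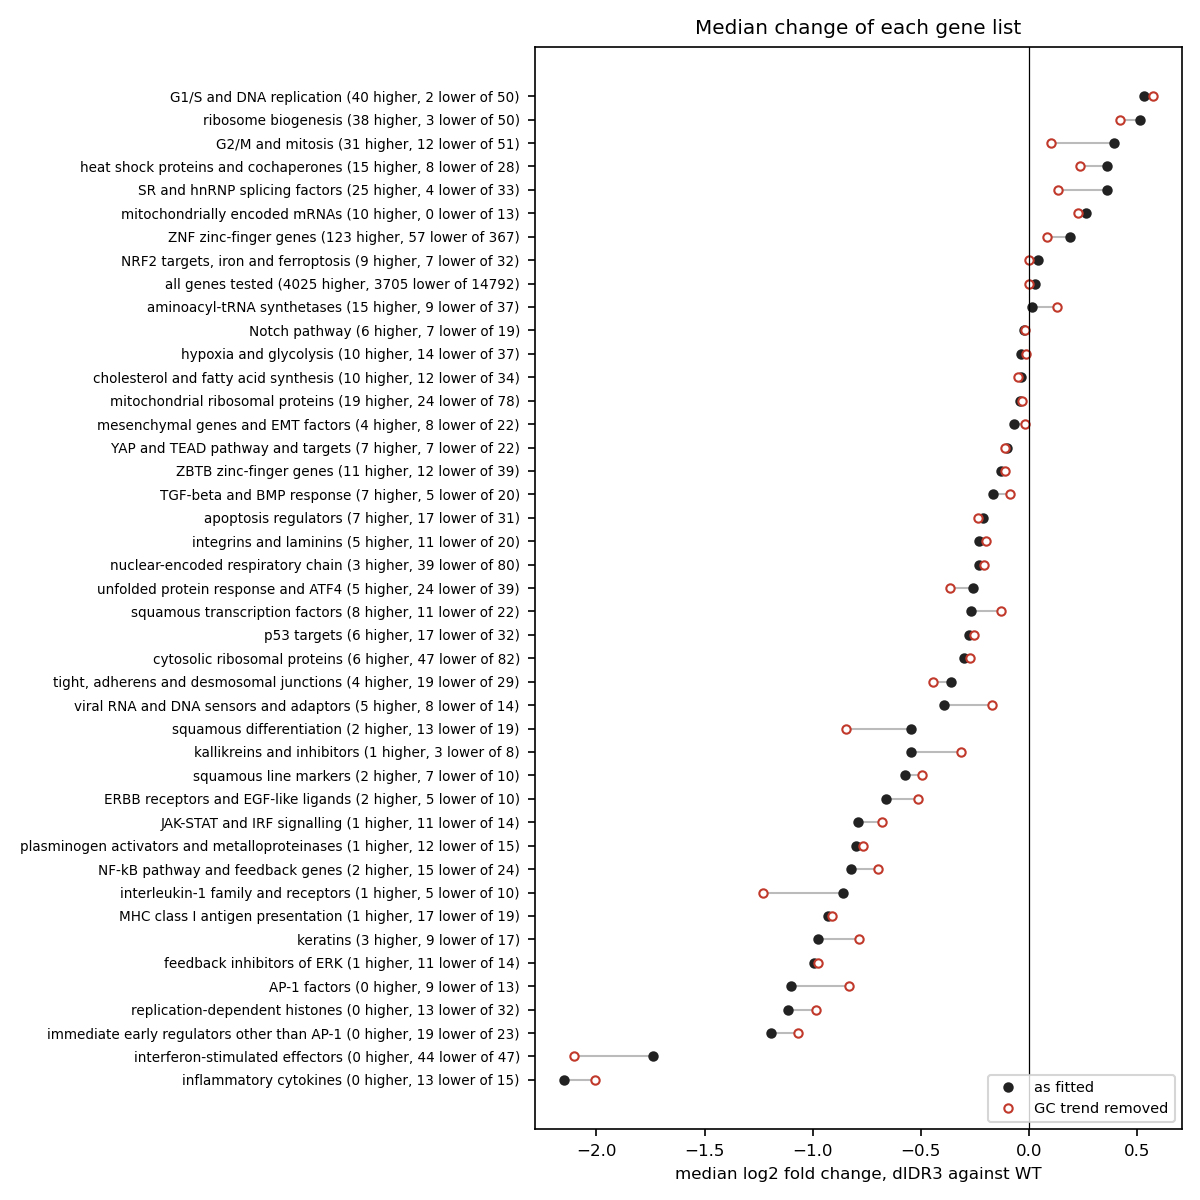
Median log2 fold change of dIDR3 against WT (x axis) for gene lists with their counts of called members, with filled points as fitted and open points with the GC trend removed. The lists of the AP-2 family, interferons and receptors, chemokines, neural crest and other cell types are not drawn. The interferon-stimulated effectors lie at -1.74 and -2.10 and the G1/S genes at 0.53 and 0.57, while the G2/M genes move from 0.39 to 0.10.

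Beside GFP, 4294 genes (29% of those tested) differed with dIDR3, 2309 higher (15.6%) and 1985 lower (13.4%). This comparison shares the dIDR3 libraries with the one above, so each list's values are given side by side and nothing is drawn from their likeness. The interferon-stimulated effectors had a median of -1.74 against WT and -1.06 against GFP, with 33 of 47 called lower against GFP and 0 higher. For example, OASL was at -1.08 ± 0.084, IFIT1 at -1.16 ± 0.082 and CCL5 at -2.37 ± 0.20 against GFP, so that these genes were lower with dIDR3 than without any TFAP2β construct. The AP-1 list had a median of -1.10 against WT and 0.24 against GFP, where 6 of 13 were higher and 0 lower, the NF-kB list of -0.82 and 0.01, the MHC class I list of -0.93 and -0.27, and the ERK feedback list of -0.99 and 0.44. The G1/S list had medians of 0.53 and 0.41, with 38 of 50 higher against GFP and 1 lower, and ribosome biogenesis of 0.51 and 0.25, with 30 of 50 higher and 1 lower. FOSL1 (1.52 ± 0.066) was above GFP, whereas KRT14 (-2.29 ± 0.063) and SLPI (-1.12 ± 0.11) were below it.

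The direct test of dIDR3 against Mut_IDR3, which holds a like amount of TFAP2B RNA, shares the dIDR3 libraries too and called 1594 genes (10.8% of those tested), 775 higher (5.24%) and 819 lower (5.54%). This split depends on the scaling, since upper-quartile scaling gave 570 higher and 1074 lower. It depends on single libraries too: without dIDR3 replicate 2 or 3 the count was 844 or 948, and without Mut_IDR3 replicate 1, 2 or 3 it was 917, 819 or 902. The genes named next are among the 5 largest changes in each direction, under the same filter on level and overlap, of genes also called in dIDR3 against WT. Against WT, EVI2A (0.64) lost its call with the GC trend removed and without WT replicate 1 (0.44) or dIDR3 replicate 2 (0.43) or 3 (0.64), and MMP24 (0.80) without dIDR3 replicate 2 (0.65). DKK1, a secreted inhibitor of Wnt signalling, was at 45.1, 41.4 and 39.6 CPM in the Mut_IDR3 libraries and 97.3, 91 and 89.1 CPM in the dIDR3 libraries (1.14 ± 0.099, adjusted p = 8.76e-06). TENM2, a teneurin adhesion protein of neurons, was at 22.6, 24.4 and 28.4 CPM and 55.7, 58.3 and 50.1 CPM. The metalloproteinase MMP24 was at 2.41, 3.57 and 2.64 CPM and 8.21, 9.82 and 6.99 CPM. EVI2A was higher as well (1.64 ± 0.23). KRT15, at 427, 446 and 427 CPM and 192, 178 and 164 CPM, was lower with dIDR3 (-1.28 ± 0.059). Also lower were SOX2, at 7.78, 8.63 and 7.96 CPM and 1.90, 1.06 and 0.847 CPM, the mucin MUC16, at 9.29, 9.10 and 9.70 CPM and 2.74, 4.23 and 2.56 CPM, and the calcium channel TRPV6, at 32.1, 30.2 and 26.9 CPM and 10.5, 10.1 and 10.4 CPM.

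**Figure D4:**
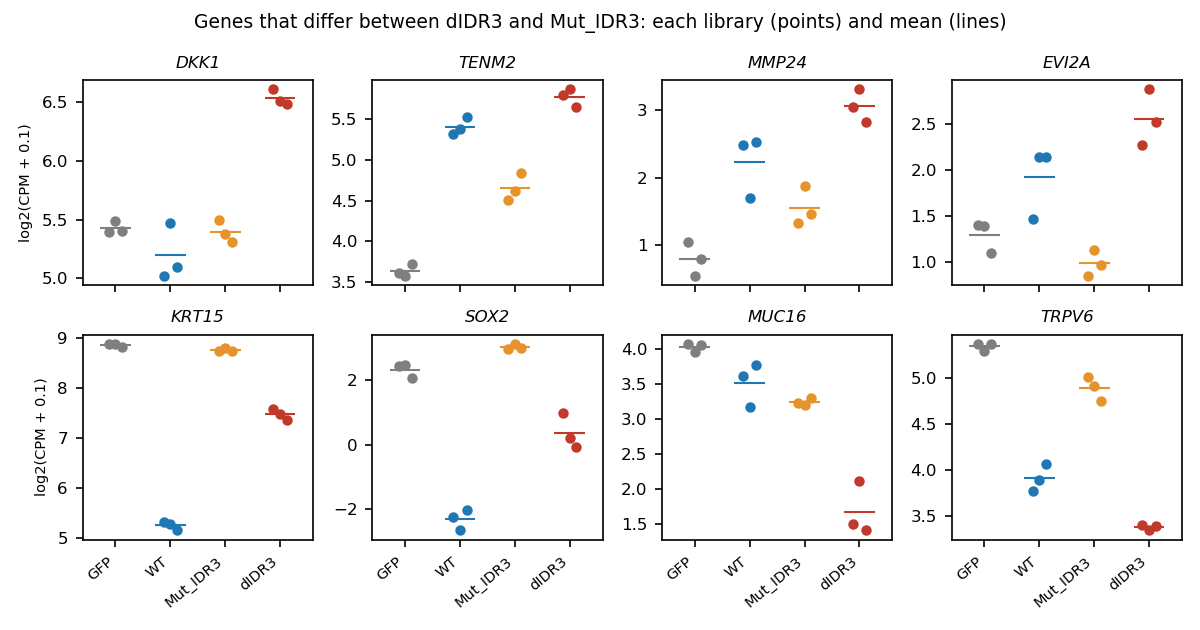
Level of 8 genes that differ between the 2 altered forms as log2(CPM + 0.1) (y axis) in each library, by construct (x axis); points are libraries and lines the mean of 3. DKK1, TENM2, MMP24 and EVI2A are higher and KRT15, SOX2, MUC16 and TRPV6 lower in all 3 dIDR3 libraries than in the 3 Mut_IDR3 libraries, as the rule that chose them required.

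By list, 19 of 47 interferon-stimulated effectors were lower with dIDR3 than with Mut_IDR3 and 0 were higher (median -0.39, against 0.01 for all genes tested), with RSAD2 at -1.44 ± 0.24 and OASL at -0.43 ± 0.088, while ISG15 (-0.19 ± 0.067) and IFIT1 (0.02 ± 0.088) were not called. G1/S genes were higher in 20 of 50 cases and lower in 0 (median 0.21), ribosome biogenesis genes in 27 of 50 and 0 (median 0.25), heat shock genes in 12 of 28 and 0 (median 0.18), and ribosomal protein genes were lower in 17 of 82 and higher in 1 (median -0.13). Of the AP-1 factors, FOSL1 (0.92 ± 0.064) and JUN (0.81 ± 0.098) were higher and MAFK (-0.40 ± 0.075), ATF3 (-0.46 ± 0.073) and JUNB (-0.26 ± 0.072) lower with dIDR3. KRT17 (-0.70 ± 0.064) and SLPI (-1.12 ± 0.11) were lower with dIDR3, and CYR61 (0.45 ± 0.04) was higher. The members of the AP-2 list gave 0 calls in this comparison with edgeR at adjusted p under 0.05, and 2 at an unadjusted p under 0.05 (CREBBP and CITED4), with TFAP2A at -0.04 ± 0.064 (adjusted p = 0.774).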

How the data were processed

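RNA of KYSE150 cells was extracted with an RNeasy kit and made into libraries with a SMARTer mRNA-seq kit, per the labels' protocols. The authors deposited 1 table of raw read counts for 24302 features, and the submitters' processing notes name Trim Galore, HISAT2, StringTie and GRCh38, without versions. Strand use in counting is not given in the sources used here, so overlapping genes cannot be told apart, and 4328 features called NewGene have no gene name.

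The counts were tested with edgeR 4.0.16 (R 4.3.3, TMM scaling, filterByExpr, quasi-likelihood F test on all 4 groups, 8 residual degrees of freedom), with Benjamini-Hochberg adjustment over the 14792 features that passed the filter and a call at adjusted p under 0.05. CPM are counts scaled by the library's total over the genes that passed the filter, times its TMM factor. Groups follow the labels. A replicate number marks nothing shared in the labels, and deviations of same-numbered WT and dIDR3 libraries correlated at 0.003 to 0.076, so the numbers were not used as pairs. GC content and length are those of the longest GENCODE transcript of each gene (GRCh38), and promoters are from RefSeq (GRCh38.p14). Folds against a group without counts are bounds at 3 counts over the group.

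The genes named are the AP-2 genes, the 15 largest rises and falls with at least 5 CPM and no overlap of libraries, members of each list with the lowest adjusted p, the 5 largest changes each way against Mut_IDR3, and other list members as examples. Some genes that meet this rule are not reported here. Members and lists were chosen with earlier results of these data known. On simulated counts of 14698 genes for dIDR3 against WT, the test called 56.1%, 76.1% and 90.9% of genes changed by 1.5-fold, 2-fold and 4-fold. Only 66, 67 and 66 genes were changed there, a far smaller share than was called in the data. These percentages therefore do not give the power of the real comparison. Alternatives covered scaling, filters, DESeq2 1.42.0, limma-voom (limma 3.58.1), the libraries in the fit, a replicate block, GC and length trends, and leaving out each library.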

Additional observations from a re-analysis of the deposited data

How the results depend on the processing

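The number of genes called between dIDR3 and WT stayed within 1.5 times of 7730 under the alternatives run, except that asking for at least a 2-fold change left 1359. Leaving out 1 library gave 6792 to 7785 calls. Median-ratio scaling gave 3823 higher and 3912 lower, and removal of the GC trend 3542 and 3702. The replicate block gave 3924 higher and 3547 lower, and the block with the GC trend removed 3449 and 3566. Of the 183 named gene features other than TFAP2B, 173 had a value under all 19 alternatives and the rest under at least 17. Under each alternative that gave a value, 155 kept their side of the threshold, and those of them that were called kept their direction. Direction was not required of genes not called. For example, CXCL2 turned from 0.09 to -0.16 without WT replicate 3 and CSF1 from -0.13 to 0.105 with the GC trend removed, both still not called. With the GC trend removed, without and with the replicate block, the log2 fold change turned to -0.33 and -0.32 for IFI16, -0.0845 and -0.0841 for ITGAV, -0.0174 and -0.0185 for ITGB1, and -0.15 and -0.15 for TP63, and with the length trend removed TP63 was at -0.0022. The cause was not tested. For dIDR3 against Mut_IDR3, an alternative set chosen after seeing the data gave 819 to 1143 calls when 1 library of the 2 groups was left out, against 1594, and the replicate block gave 1206. For dIDR3 against GFP the leave-out counts were 3099 to 3564, against 4294.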

Other observations

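The lists below are given for their named genes. Of all genes tested, 25% were lower and 27.2% higher, and the shares of the lists are to be read against these. In the Notch pathway, which steers basal cells towards differentiation, 7 of 19 genes were lower (36.8%) and 6 higher (31.6%). The receptor NOTCH1 went from 41.5, 39.6 and 51 CPM to 25.7, 25.6 and 24.3 CPM (-0.81 on the log2 scale, or -0.53 with the GC trend removed) and the target HES1 from 52.9, 54.6 and 52.6 CPM to 22.8, 22.9 and 21 CPM, while the ligand JAG2 rose from 46.5, 44.9 and 57.2 CPM to 103, 99 and 97.3 CPM and the glycosyltransferase LFNG, which modifies Notch receptors, by 1.58 ± 0.34 on the log2 scale. In the interleukin-1 family, 5 of 10 genes were lower and 1 higher, or 5 and 0 with the GC trend removed. The decoy receptor IL1R2 was at -4.32 ± 0.94 and the receptor antagonist IL1RN at -1.99 ± 0.23. Of 20 genes of the TGF-beta and BMP response, 5 were lower (25%) and 7 higher (35%), the latter 4 without dIDR3 replicate 2. BAMBI, a pseudoreceptor, fell from 4.38, 5.42 and 3.79 CPM to 0.549, 0.26 and 0.339 CPM and TGFBI, a secreted matrix protein, rose from 1.16, 0.681 and 0.435 CPM to 2.17, 2.39 and 1.81 CPM (1.49), a call it lost without WT replicate 3 (1.20) or dIDR3 replicate 2 (1.37).

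Of 31 apoptosis regulators, 17 were lower (54.8%) and 7 higher (22.6%). The antiapoptotic genes BCL2L1 (-0.97 ± 0.062), CFLAR (-0.89 ± 0.12) and BIRC3 (-1.10 ± 0.37) fell beside the proapoptotic BBC3 (-1.50 ± 0.11). BIRC3 lost its call without WT replicate 3 (-0.84) or dIDR3 replicate 2 (-0.84). Hypoxia and glycolysis genes were lower in 14 (37.8%) and higher in 10 (27%) of 37 cases, and their median of -0.037 ran from -0.069 to 0.0066 over the alternatives. Among them were the glucose transporter SLC2A3, at -1.84 ± 0.073, and the carbonic anhydrase CA9, at 1.80 ± 0.16 on the log2 scale. Genes of cholesterol and fatty acid synthesis were lower in 12 (35.3%) and higher in 10 (29.4%) of 34 cases. As examples, MSMO1 and FDFT1 of the sterol branch fell by 0.72 and 0.63, and ELOVL6 and FADS1, which elongate and desaturate fatty acids, rose by 1.12 and 0.93 on the log2 scale. Sterol and fatty acid genes were not counted apart. With the GC trend removed MSMO1 was at -1.19.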
